A study of Arabidopsis thaliana with 8 samples.

Results

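Cytochrome P450 transcripts were followed in Arabidopsis thaliana shoots (ecotype Col-0) with and without heat. The members were the probe sets whose only gene symbol in the platform annotation reads CYP, a family number from 51 up and a subfamily letter. This rule found 23 genes among 13513 probe sets paired with 1 gene, each gene with 1 probe set, out of 22810 probe sets on the array. Of the 23 genes 19 belong to subfamily CYP71B, and the other 4 are CYP78A9, CYP79A2, CYP84A4 and CYP51G2. The RefSeq gene table lists 236 P450 symbols of this form, 36 of them CYP71B, so the set is a small and uneven sample of the superfamily. CYP718, which carries no subfamily letter, was left out by the rule, as were 2 probe sets that read several genes.

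Wild-type seedlings and seedlings of a T-DNA knockout line of HSA32 (AT4G21320, allele GABI-268A08, also in Col-0) were kept for 2 h at 22 °C as controls or at 37 °C, both 15 days old. Every one of the 4 groups was read on 2 arrays from separate plant pools, and the knockout rests on 1 insertion line. For wild-type control replicate 1 the source field lacks the word control, and its title was followed. Signals are the deposited linear intensities, and changes are differences in log2(signal + 29.1), a scale that understates the change of dim transcripts. Because shoots are mixed tissue, fewer cells of a type and less RNA per cell cannot be told apart.

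Plant P450s are heme enzymes, most of them anchored in the endoplasmic reticulum, that insert oxygen into small molecules with electrons passed on by a P450 reductase. They build and break down hormones, sterols, pigments, cell wall precursors and defence compounds. CYP71B is a large subfamily in Arabidopsis, known for PAD3, which makes the phytoalexin camalexin, but most of its enzymes have no firmly assigned substrate. CYP71B6 acts on indole-3-acetonitrile, CYP71B31 on the floral monoterpenol linalool, CYP79A2 forms phenylacetaldoxime for benzylglucosinolate, and CYP84A4 belongs to the synthesis of arabidopyrones. CYP78A9 is known for its part in fruit and seed size, and CYP51G2 is a relative of the sterol demethylase CYP51G1.

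The 4 heated arrays had medians of 131.3 to 133.9 and the 4 controls of 159.9 to 181.4, although all had nearly the same trimmed mean. Heat values and background shares from the main fit were not corrected for this shift, and its cause was not tested. Replicates correlated across probe sets at 0.87 to 0.949. HSA32 read 657.3 and 230.0 in unheated wild type, 23174.9 and 9240.3 in heated wild type, 1124.7 and 1246.6 in the unheated knockout and 378.2 and 589.1 in the heated knockout. The heat rise of the wild type was thus not seen in the arrays labelled knockout, but at 22 °C HSA32 was higher in both of these than in both wild-type arrays, which goes against the label. The position of the probe set relative to the insertion was not checked. The leaf marker RCA, Rubisco activase, lay between 16090.2 and 36539.4 on every array. It was 1 of 5 leaf markers with a named probe set. None of 4 seed and 3 flower markers had one. Root markers had a named probe set in 3 of 5 cases, and their summed signal lay between 2109.4 and 9337.1, nearly all of it from PYK10, a root beta-glucosidase.

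No P450 gene passed the heat test in either genotype taken alone. Limma called 0 of 12 tested genes in wild type, where 2.55% of all 15919 tested probe sets were called, and 0 of 12 in the knockout, against 6.78%. A crossed replicate block, described with the replicate order and chosen from these arrays, changed these counts to 1 in wild type (CYP71B23, limma adjusted p = 0.0161; 8.83% of all probe sets called) and 3 in the knockout (CYP71B22, CYP71B23 and CYP71B5, adjusted p = 0.0213, 0.0157 and 0.039; 18.0% called). Without a block, at an unadjusted p under 0.05 there were 4 genes in wild type (16.9% of all probe sets) and 4 in the knockout (23.4%). The 4 in wild type were CYP71B6, CYP71B22, CYP71B23 and CYP71B29, each with a negative value. The 4 in the knockout were CYP71B22 and CYP71B23 with negative values and CYP71B5 and CYP71B35 with positive ones.

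Since several genes had heat values of like sign in both genotypes, the mean of both heat contrasts was taken from the same fit, a comparison added after the values had been seen. It called 3 of 12 genes, CYP71B22 and CYP71B23 lower and CYP71B5 higher. Of all tested probe sets 17.3% were called in this comparison (5.25% higher and 12.0% lower), so a count of 3 is not far from the background. With 1 array left out the count ran from 0, without knockout control replicate 2, where 7.39% of all probe sets were called, to 5, without wild-type heat replicate 1, where 26.4% were. The median log2 change of the 12 genes was -0.31, beside -0.24 for all probe sets. For the 10 tested CYP71B genes it was -0.52, with 1 called higher and 2 lower.

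The signal of CYP71B22 (AT3G26200) was lowest after heat in both genotypes. It was 129.3 and 388.1 in unheated wild type, 51.8 and 90.1 in heated wild type, 255.7 and 337.7 in the unheated knockout and 91.0 and 47.5 in the heated knockout. All 4 heated arrays lay below all 4 controls, and the group means were 258.7 ± 183.0 against 70.95 ± 27.08 in wild type and 296.7 ± 57.98 against 69.25 ± 30.76 in the knockout (SD, n = 2). In limma the log2 change was -1.39 ± 0.50 (SE) in wild type (adjusted p = 0.201; -0.69 without control replicate 2 and -2.09 without control replicate 1) and -1.75 ± 0.50 in the knockout (adjusted p = 0.0712). The mean of both was -1.57 ± 0.35 (adjusted p = 0.0181). The ratio of deposited means, heat over control, was 0.274 in wild type and 0.233 in the knockout, and the fitted change ran from -1.83 to -1.04 with offsets of 7.275 and 116.4. Leaving out 1 array ended this call for wild-type control replicate 2 (adjusted p = 0.0563), knockout control replicate 1 (0.0502), knockout control replicate 2 (0.0759) or knockout heat replicate 2 (0.0627). The knockout change taken alone stayed at -1.75 when any 1 wild-type array was left out of the shared fit, and only its adjusted p moved.

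CYP71B23 (AT3G26210), the gene next to CYP71B22, followed the same course. It read 192.1 and 156.2 in unheated wild type, 37.5 and 14.1 in heated wild type, 86.7 and 231.6 in the unheated knockout and 10 and 47.0 in the heated knockout. Again the 4 heated arrays lay below the 4 controls. The log2 change was -1.92 ± 0.51 in wild type (limma, adjusted p = 0.0986) and -1.67 ± 0.51 in the knockout (adjusted p = 0.086). The mean of both was -1.79 ± 0.36 (adjusted p = 0.0118), with the call lost only without knockout control replicate 2 among the arrays left out singly (adjusted p = 0.052). Its heated means of 25.80 and 28.50 lie under the mean signal of 61.7 that a probe set had to exceed, so it was tested by virtue of its controls; without that filter the mean change was also called. Since these signals are close to the offset of 29.1, the size of the change depends on it: the mean was -2.42 with an offset of 7.275 and -0.96 with one of 116.4, both called, and the ratio of deposited means was 0.148 in wild type and 0.179 in the knockout. Probe sequences were not used here, so how far the probe sets of these neighbouring genes read each other's transcripts is unknown.

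CYP71B5 (AT3G53280) was the 1 gene called higher. It was measured at 522.0 and 534.9 in unheated wild type, 696.9 and 889.9 in heated wild type, 432.2 and 470.7 in the unheated knockout and 824.9 and 978.7 in the heated knockout. Every heated array lay above every control. The log2 change was 0.55 ± 0.31 in wild type (limma, adjusted p = 0.418) and 0.95 ± 0.31 in the knockout (adjusted p = 0.109). The mean of both was 0.75 ± 0.22 (adjusted p = 0.0492), a 1.68-fold rise that barely passed. It was lost on leaving out any array but wild-type heat replicate 1, with adjusted p from 0.0881 to 0.153, and with a smaller offset, no filter, robust moderation or a replicate block (0.0505 to 0.0632).

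**Figure D1:**
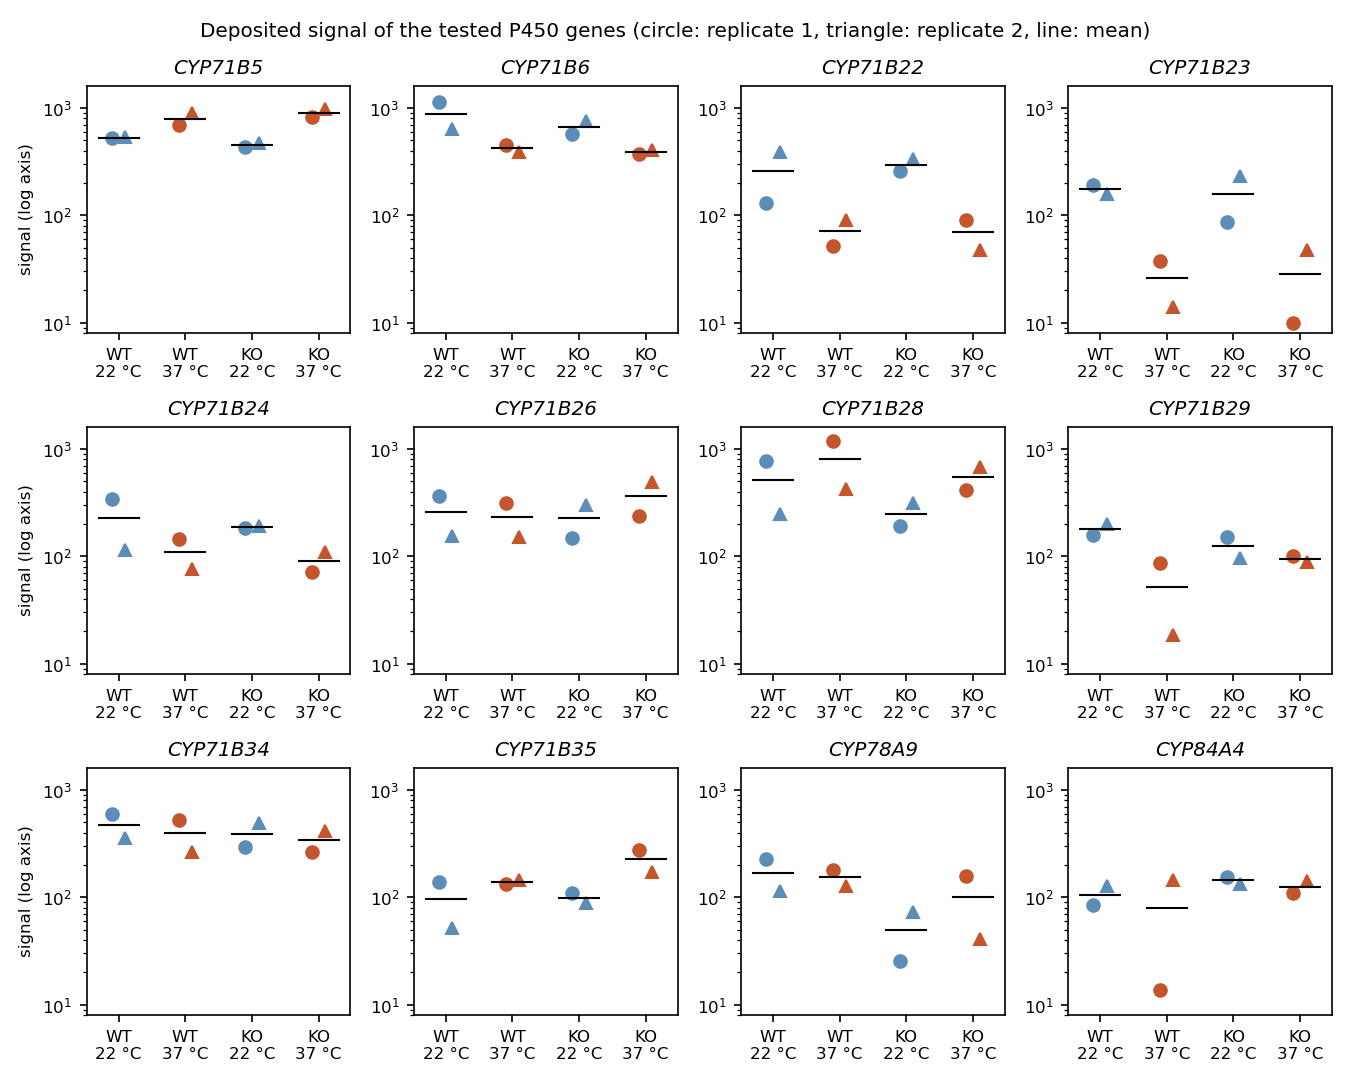
Deposited signal (log axis) of the 12 tested P450 genes in wild type (WT) and the HSA32 knockout (KO), blue at 22 °C and red at 37 °C, with a circle for replicate 1, a triangle for replicate 2 and a line at the mean of both. In CYP71B22, CYP71B23 and CYP71B6 the 4 heated arrays lie below the 4 controls, and in CYP71B5 they lie above them.

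CYP71B6 (AT2G24180), the indole-3-acetonitrile enzyme, also had heated and control arrays without overlap but missed the threshold. It read 1132.7 and 638.8 in unheated wild type, 453.0 and 392.4 in heated wild type, 565.4 and 756.4 in the unheated knockout and 370.0 and 404.5 in the heated knockout. All heated arrays lay below all controls. The mean log2 change of both genotypes was -0.84 ± 0.26 (limma, adjusted p = 0.0567). It passed with the dimmest 50% of probe sets left out (limma adjusted p = 0.0496), where 20.9% of all probe sets were called, against 17.3% in the main fit. Without wild-type heat replicate 1 the mean change was -0.89, and over all alternatives run it ranged from -1.04 to -0.56. In wild type alone 4 tested genes had both heated arrays below both controls and 1 above (30.5% and 13.0% of all tested probe sets), and in the knockout 4 below and 3 above (40.9% and 18.0%). Across both genotypes heated and control arrays were fully apart in 4 of 12 tested genes, 3 lower and 1 higher, where 18.7% of all tested probe sets were lower and 7.29% higher in this way.

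CYP71B24, CYP71B29, CYP71B35 and CYP71B28 gave values away from 0 that did not pass. CYP71B24 (AT3G26230) read 338.0 and 114.3 in unheated wild type, 144.3 and 75.8 in heated wild type, 183.6 and 193.1 in the unheated knockout and 71.9 and 110.3 in the heated knockout. Its arrays overlapped in wild type but not in the knockout, and its mean change was -0.82 ± 0.34 (limma, adjusted p = 0.131). CYP71B29 (AT1G13100) went from 157.4 and 201.3 in unheated to 85.9 and 18.6 in heated wild type, with a log2 change of -1.48 ± 0.45 (limma, adjusted p = 0.141). In the knockout it read 150.8 and 96.4 before and 101.2 and 88.5 after heat, with overlapping arrays and a change of -0.28 ± 0.45. Without wild-type heat replicate 1 the wild-type value of CYP71B29 was -2.12 and the mean of both genotypes -1.20. This leaves heat replicate 2 alone in its group, at a signal of 18.6, under the offset of 29.1. Without wild-type heat replicate 2 the wild-type value was -0.85 and the mean -0.56. With all arrays the wild-type change was -1.92 with an offset of 7.275 and -0.84 with one of 116.4. The heated wild-type mean of CYP71B29, 52.25, lies under the mean signal of 61.7 that a probe set had to exceed. The gene was thus tested by virtue of its other groups.

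CYP71B35 (AT3G26310) read 139.3 and 51.8 in unheated wild type, 132.9 and 144.4 in heated wild type, 109.1 and 88.8 in the unheated knockout and 278.3 and 173.5 in the heated knockout. Its knockout arrays did not overlap, with a log2 change of 0.97 ± 0.42 (limma, adjusted p = 0.204), whereas its wild-type arrays did. CYP71B28 (AT1G13090) read 772.7 and 249.4 in unheated wild type, 1174.1 and 423.3 in heated wild type, 189.7 and 310.3 in the unheated knockout and 413.3 and 680.6 in the heated knockout. Within each genotype and replicate number the heated array was higher, but the wild-type groups overlapped, and the mean change of 0.84 ± 0.44 did not pass (limma, adjusted p = 0.215).

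The remaining 4 tested genes had mean heat changes within -0.40 and 0.27. They were CYP71B34 at -0.22, CYP71B26 at 0.25, CYP84A4 at -0.40 and CYP78A9 at 0.27, with adjusted p from limma of 0.54 to 0.69. In CYP84A4 (AT5G04330), the arabidopyrone gene, 1 array stood alone: wild-type heat replicate 1 read 13.8 while the other 7 arrays lay between 84.4 and 154.6. Without that array its mean heat change was 0.11 in place of -0.40, and without wild-type heat replicate 2 it was -0.91 and passed (limma adjusted p = 0.0493). CYP78A9 (AT3G61880) read 225.6 and 113.8 in unheated wild type, 179.5 and 126.3 in heated wild type, 25.4 and 73.0 in the unheated knockout and 158.9 and 40.6 in the heated knockout. Its heated and control arrays overlapped in both genotypes.

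**Figure D2:**
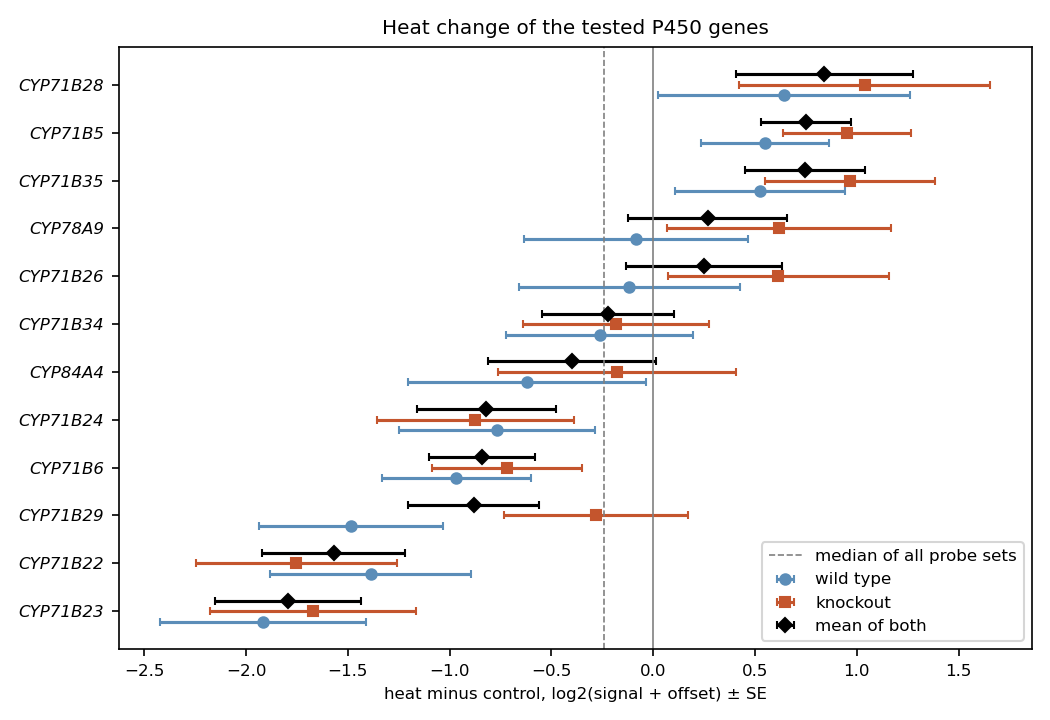
Heat minus control on the log2(signal + 29.1) scale with standard errors for the 12 tested P450 genes, in wild type, in the knockout and as the mean of both. CYP71B23 and CYP71B22 lie lowest with means of -1.79 and -1.57, and the dashed line marks the median of all probe sets at -0.24.

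By role, the heat results rest almost wholly on CYP71B genes. Fixed role groups with a member numbered 6 of 15. Apart from CYP71B itself they were glucosinolate and camalexin pathways (CYP71B6 and the untested CYP79A2), phenylpropanoid synthesis (CYP84A4), organ growth (CYP78A9), terpenoid oxidation (CYP71B31, untested) and brassinosteroid and sterol (CYP51G2, untested). In each of these 5 groups 0 members were called in any of the contrasts, from at most 1 tested gene. Of 8 electron donors of P450s, such as the reductases ATR1 and ATR2, and of 21 P450 genes listed under another name, such as C4H of phenylpropanoid synthesis, AOS of jasmonate synthesis and DWF4 of brassinosteroid synthesis, 0 had a named probe set. They were not analysed here.

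Most CYP71B members sit side by side in the genome. In the RefSeq table (TAIR10.1) 11 members, from CYP71B16 (AT3G26150) to CYP71B37 (AT3G26330) on chromosome 3, lie within 25 consecutive genes, 18 of which are CYP71B. Of these 11 genes 6 were tested. CYP71B22 and CYP71B23, which fell in the mean of both genotypes, are direct neighbours, and CYP71B24 (-0.82, not passing) follows after 1 other gene. At the far end CYP71B26, CYP71B34 and CYP71B35 had mean heat changes of 0.25, -0.22 and 0.74, none of which passed. A shorter run on chromosome 1 holds CYP71B27, CYP71B28 and CYP71B29. There CYP71B28 (0.84) and CYP71B29 (-0.88), direct neighbours, had mean heat changes of opposite sign, though neither passed. In a run of 5 genes on chromosome 3 CYP71B5 stands with CYP71B30P and CYP71B31, both too dim to be tested.

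Another 11 members were too dim to be tested. CYP71B38, the closest to the limit, had a mean signal of 57.28 over all arrays, below the limit of 61.7, and CYP71B23 as the nearest tested gene had 96.90. For CYP71B38 the signals ran from 29.9 to 89.5, for CYP51G2 from 22.9 to 93.5 and for CYP71B37 from 18.4 to 81.2. CYP71B27 lay between 14.5 and 57.8, CYP71B36 between 27.9 and 51.5 and CYP71B25 between 10 and 88.6. The RefSeq table types CYP51G2 and CYP71B27 as transcribed pseudogenes. CYP71B16 lay between 4.5 and 29.9, and CYP71B21 (1.3 to 25.5), CYP71B30P (2.4 to 8.4) and CYP79A2 (2.1 to 20.9) stayed under the offset of 29.1 on every array. When the filter was dropped, 0 of these 11 genes passed in any contrast in limma, with adjusted p from 0.276 up and 0 at an unadjusted p under 0.05.

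CYP71B31, the linalool enzyme, differed in 1 dim array. It read 1.3 and 5.1 in unheated wild type, 7.0 and 65.7 in heated wild type, 1.7 and 4.1 in the unheated knockout and 9.7 and 5.4 in the heated knockout. Both heated arrays lay above both controls in each genotype, but all values except the 65.7 of wild-type heat replicate 2 were under the offset.

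**Figure D3:**
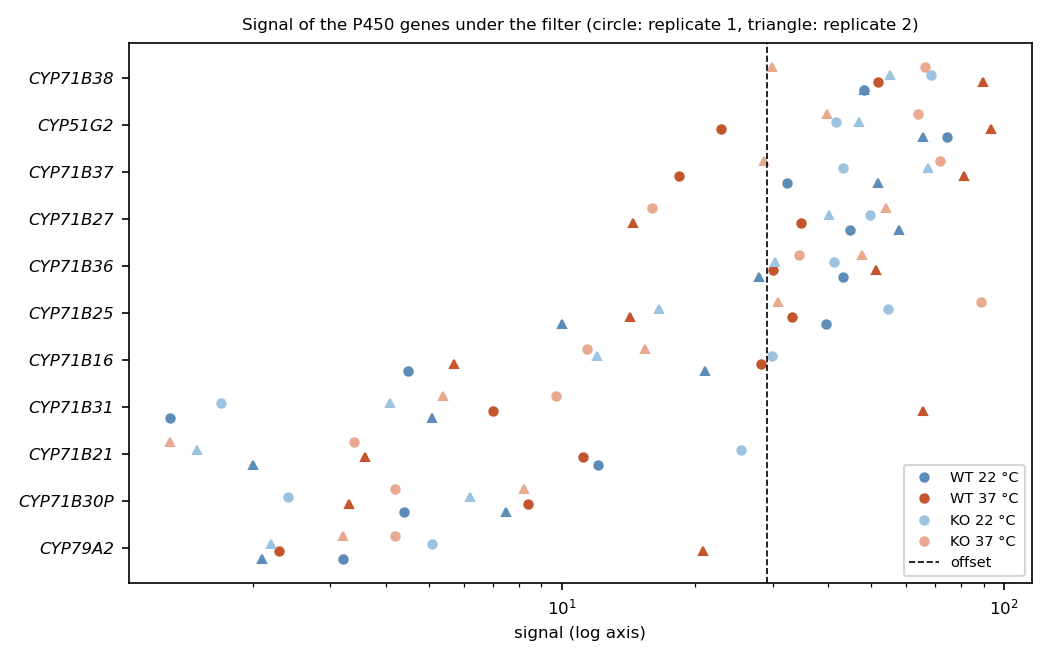
Signal on a log axis of the 11 P450 genes whose mean signal did not pass the filter, with colours for wild type (WT) and the HSA32 knockout (KO) at 22 °C or 37 °C, a circle for replicate 1 and a triangle for replicate 2. The dashed line marks the offset of 29.1, and CYP71B21, CYP71B30P and CYP79A2 lie wholly to its left.

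At 22 °C no P450 gene passed between the arrays labelled knockout and wild type, a comparison in which HSA32 itself was not lower in the arrays labelled knockout. Limma called 0 of 12 genes and 0% of all probe sets, with 1 of 12 at an unadjusted p under 0.05 against 0.515% of all probe sets. That gene was CYP78A9, the organ size gene, whose knockout controls (25.4 and 73.0) both lay below the wild-type controls (225.6 and 113.8). The unheated knockout mean of CYP78A9, 49.20, lies under the mean signal of 61.7 that a probe set had to exceed. CYP78A9 was thus tested by virtue of its other groups, and the signal of 25.4 is under the offset of 29.1. Its knockout minus wild-type log2 difference was -1.35 ± 0.55 (unadjusted p = 0.0369, limma adjusted p = 1), with a 95% interval from -2.61 to -0.10. With 1 array left out the CYP78A9 difference ran from -1.81 to -0.90, and over all alternatives run from -1.81 to -0.78. The next lowest values were CYP71B28 at -0.79 and CYP71B29 at -0.46, and the highest were CYP84A4 at 0.38, CYP71B22 at 0.33 and CYP71B35 at 0.13.

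After heat no gene passed between the labelled genotypes either. Limma called 0 of 12 genes and 0% of all probe sets, with 0 of 12 at an unadjusted p under 0.05 against 1.76%. HSA32 itself did not pass, at -4.87 (limma adjusted p = 0.233). A lack of calls in this comparison therefore does not show that P450 signals were alike in both. The highest knockout minus wild-type values were CYP84A4 at 0.82, CYP71B29 at 0.74 and CYP71B26 at 0.58, and the lowest were CYP78A9 at -0.65, CYP71B28 at -0.40 and CYP71B24 at -0.18. The value of CYP84A4 turned to -0.19 without wild-type heat replicate 1. Those of CYP71B29 and CYP71B26 dropped to 0.11 and 0.12 without wild-type heat replicate 2, and that of CYP71B26 was 0.096 without knockout heat replicate 2.

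Whether the heat response differed between the labelled genotypes was tested with the interaction. Limma called 0 of 12 genes and 0% of all probe sets, with 0 of 12 at an unadjusted p under 0.05 against 0.553%. HSA32 did not pass here either, at -6.39 (limma adjusted p = 0.418), so the test cannot show that responses were alike. For the 3 genes called in the mean of both genotypes the intervals were wide. The 95% interval of the difference, knockout minus wild type, ran from -1.96 to 1.23 for CYP71B22, from -1.38 to 1.87 for CYP71B23 and from -0.61 to 1.41 for CYP71B5. These intervals leave room for differences larger than the CYP71B5 response itself. The highest interaction was that of CYP71B29 at 1.21 ± 0.64 (95% interval -0.25 to 2.66), followed by CYP71B26 at 0.73 and CYP78A9 at 0.70. The lowest were CYP71B22 at -0.36, CYP71B24 at -0.11 and CYP71B34 at 0.08.

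In several P450 genes the replicate number went with the order of the arrays in every group. CYP71B26 (AT3G26290) read 364.1 and 155.3 in unheated wild type, 311.0 and 152.3 in heated wild type, 147.9 and 302.1 in the unheated knockout and 236.3 and 489.0 in the heated knockout, replicate 1 first each time. Replicate 1 was the higher array at both temperatures in wild type, by ratios of 2.34 and 2.04, and the lower one at both in the knockout, by ratios of 0.49 and 0.483. CYP71B34 (AT3G26300) read 591.1 and 352.8, then 527.8 and 266.1 in wild type, and 291.8 and 491.4, then 261.3 and 416.9 in the knockout, in the same order. For CYP71B28 the ratio of replicate 1 to replicate 2 was 3.10 and 2.77 in wild type and 0.611 and 0.607 in the knockout.

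The same order held in 6 of 12 tested genes, these 3 together with CYP71B6, CYP71B23 and CYP71B24, and the opposite order in 0. Over all tested probe sets 24.1% showed this order and 15.1% the opposite one, so the order was also common outside the P450 genes. The deviations of same-numbered arrays from their group means correlated at 0.542 between wild-type control and heat and at 0.525 in the knockout, but at -0.24 to -0.389 across genotypes. The summed root markers ran the other way in wild type, with 3275.4 and 9337.1 in the controls and 2109.4 and 5247.7 after heat, and read 9028.4 and 8099.2, then 4989.0 and 5935.2 in the knockout. Their part in the P450 values was not tested. With the order removed by a crossed replicate block, a setting chosen from these arrays, 6 of 12 genes were called in the mean heat change, with CYP71B6, CYP71B24 and CYP71B28 beside the first 3, but so were 32.4% of all tested probe sets, against 17.3% without the block.

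**Figure D4:**
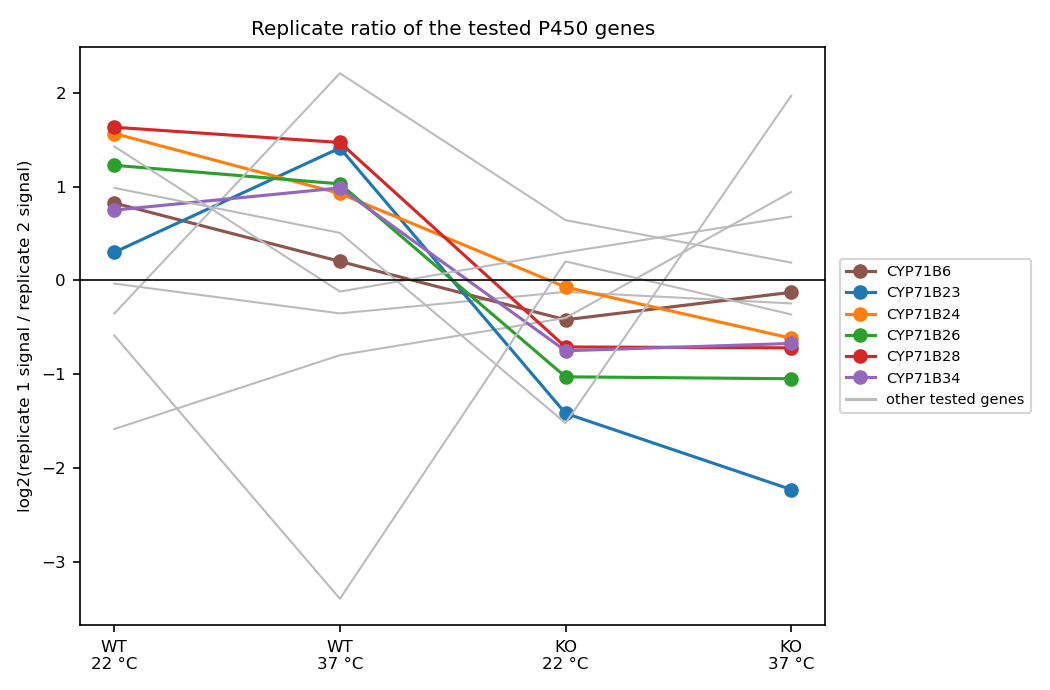
Log2 ratio of replicate 1 to replicate 2 in the 4 groups of wild type (WT) and HSA32 knockout (KO) for the 12 tested P450 genes, with the 6 genes that lie above 0 in both wild-type groups and below 0 in both knockout groups in colour and the other 6 in grey. CYP71B26, CYP71B28 and CYP71B34 keep nearly the same ratio at both temperatures of a genotype.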

How the data were processed

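Shoot RNA of 8 samples was measured on 1-colour arrays with biotin-labelled target, per the labels. The authors deposited 1 linear intensity per probe set and array, and the software used is not stated. Array by array the values show scaling to a 2% trimmed mean of 500.04 to 500.07, which was kept. Leaving out 64 controls and then the 30% of probe sets with the lowest mean signal (61.7 or less) left 15919, tested on log2(signal + 29.1), the offset being the 20th percentile of all values. Group means were fitted with limma 3.58.1 under R 4.3.3, using a variance trend (4 residual and 4.79 prior degrees of freedom). P-values are two-sided and were adjusted by Benjamini-Hochberg over every tested probe set, with 0.05 as threshold. The fit was run on simulated arrays drawn independently, without the replicate order seen here. That run says nothing about the calibration of the reported p-values.

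Genes were named from the platform annotation, and all 23 members matched the RefSeq table (TAIR10.1), whose coordinates are not printed because the build behind the annotation is unknown. Members, role groups and lists were chosen with earlier results of these data known. Named were the genes called, the 10 highest and 10 lowest heat changes, the 3 highest and 3 lowest values of the other contrasts and members of the lists; the 11 untested genes are named to account for every member. Errors are standard errors for changes and SDs for signals. The number of arrays limits the precision, and no detection calls were used. No block was used, since replicates are separate pools. Same-numbered arrays deviated together within each genotype and tended to deviate oppositely across genotypes. The fit counts this shared deviation as error. Alternatives covered the offset, filter, normalization, variance model, replicate block and each array left out; a crossed block, the loss of both wild-type arrays numbered 1 and the mean heat contrast were added after seeing the data.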

Additional observations from a re-analysis of the deposited data

How the results depend on the processing

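The count of P450 genes called in the mean heat change was 2 or 3 with an offset of 7.275 or 116.4, no filter, the dimmest 50% left out, quantile normalization, median centring, no variance trend, robust moderation or the replicate block, against 3 as reported. The replicate block gave 2 calls, CYP71B22 and CYP71B23; CYP71B5 was lost there at 0.75 (limma adjusted p = 0.0632), as it was with the smaller offset (0.0505), no filter (0.0539) and robust moderation (0.0521). CYP71B23 was not tested with the dimmest 50% left out. Over these settings the share of all tested probe sets called ran from 10.1% (no filter) to 20.9% (dimmest 50% left out). Leaving out 1 array moved the count of calls in the mean heat change up or down, depending on the array. CYP71B29 in wild type and CYP71B22 in the knockout passed only in some of these fits. The share of all probe sets called shifted in these fits too. In the knockout contrast it rose without either wild-type heat array and fell without either wild-type control array. Whether such passes are particular to the P450 genes was not tested. A group left with 1 array is assumed to vary like the others. With the crossed replicate block the calls were 6 in the mean change, 1 in wild type (CYP71B23) and 3 in the knockout (CYP71B22, CYP71B23 and CYP71B5), where 32.4%, 8.83% and 18.0% of all probe sets were called. Without both wild-type arrays numbered 1 they were 5, 1 and 1, beside 23.7%, 5.52% and 15.2%. Between genotypes and in the interaction 0 P450 genes were called under every setting run. The cause of these shifts was not tested.

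Changes of sign were seen only in values that did not pass. With 1 array left out, 44 of the 53 values that did not pass moved by over 1.5 times or changed sign, and 0 of the 3 called ones did. Median centring moved the median mean heat change of all probe sets from -0.24 to 0.04, and their calls from 835 higher and 1916 lower to 1198 higher and 836 lower; quantile normalization gave 1004 and 1118. Under quantile normalization the heat value in wild type was 0.17 for CYP71B26, 0.021 for CYP71B34 and 0.17 for CYP78A9, and in the knockout 0.10 for CYP71B34 and 0.07 for CYP84A4, with CYP71B34 at 0.063 in the mean. Under median centring it was 0.14 for CYP71B26 and 0.17 for CYP78A9 in wild type, 0.023 for CYP71B29, 0.12 for CYP71B34 and 0.13 for CYP84A4 in the knockout, and 0.057 for CYP71B34 in the mean. Without both wild-type arrays numbered 1, the wild-type heat value was 0.12 for CYP78A9 and 0.16 for CYP84A4, and the interaction of CYP71B22 was 0.055. The same setting gave genotype values of -0.37 for CYP71B22 at 22 °C and, after heat, 0.18 for CYP71B24, 0.31 for CYP71B28 and -0.19 for CYP84A4.

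With 1 array left out, the heat value in wild type ranged from -0.66 to 0.43 for CYP71B26, -0.12 to 1.41 for CYP71B28, -0.72 to 0.19 for CYP71B34, -0.006 to 1.05 for CYP71B35, -0.50 to 0.33 for CYP78A9 and -1.63 to 0.39 for CYP84A4. In the knockout it ranged from -0.53 to 0.17 for CYP71B34 and -0.10 to 1.33 for CYP78A9. The mean heat change ranged from -0.024 to 0.52 for CYP71B26, -0.45 to 0.005 for CYP71B34, -0.091 to 0.63 for CYP78A9 and -0.91 to 0.11 for CYP84A4, whose lowest value passed (limma adjusted p = 0.0493). At 22 °C the genotype value ranged from -0.37 to 1.03 for CYP71B22 and -0.40 to 0.66 for CYP71B35. After heat it ranged from -0.55 to 0.18 for CYP71B24, -1.10 to 0.31 for CYP71B28, -1.37 to 0.062 for CYP78A9 and -0.19 to 1.84 for CYP84A4. The interaction ranged from -1.06 to 0.33 for CYP71B22, -0.34 to 0.83 for CYP71B23, -0.79 to 0.57 for CYP71B24, -0.38 to 0.54 for CYP71B34 and -0.014 to 1.42 for CYP78A9. Averaging probe sets of 1 gene and adding P450 genes under other names left the same members, since each gene had 1 probe set and none of the others had a named one.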
